A study of Homo sapiens with 46 samples.

Results

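The 39 genes described here encode the proteins that sense RNA in the wrong place, the factors that pass the alarm to the nucleus, and the best-known products of the interferon response. They were taken by symbol from the count table of 58735 genes, in which all 39 were found. Of these, 37 passed the filter on low counts, and 35 had a mean of at least 0.5 CPM (read counts scaled by library depth and TMM factors) over the 46 libraries and entered the comparisons. The question was whether silencing an mRNA inside mitochondria sets off RNA sensing in the cell.

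Mitochondrial DNA is transcribed from both strands, and the transcripts can pair into long double-stranded RNA that is normally kept inside the organelle and degraded there. When such RNA reaches the cytosol, the helicases RIG-I and MDA5 bind it and act through MAVS, an adaptor on the mitochondrial outer membrane, to switch on interferon genes. Secreted interferon then acts through its receptors and the STAT and IRF9 factors to raise a set of antiviral genes, many of which carry an interferon-stimulated response element (ISRE) near their start.

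The cells were HEK293T, here the Flp-In T-Rex derivative, an immortal line from embryonic kidney. They were transfected, in the paper's protocol with the reagent Endo-Porter, and RNA-seq followed 48 hours later. Each treatment was a chimera that joins pCox4, a yeast presequence imported by mitochondria, to a morpholino (a synthetic antisense strand without charge) against 1 of 11 mRNAs encoded by mtDNA. These were ND1, ND2, ND3, ND4L and ND5 of complex I, CYTB of complex III, COX1, COX2 and COX3 of complex IV, and ATP6 and ATP8 of complex V. The control was pCox4 in click reaction buffer alone, so it shares the presequence with the treatments and not the antisense strand. There were 4 libraries of each condition, except 3 of COX2 (replicates 2, 3 and 4) and 3 of ND2 (replicates 1, 3 and 4). Replicates 1 and 2 form batch 1 (22 libraries) and replicates 3 and 4 form batch 2 (24 libraries), run on different days and with separate batches of reagents. HEK293 is 1 immortal line that carries adenovirus DNA, and no sample here was given interferon or double-stranded RNA, so the size of a full response in these cells was not measured. Untransfected cells were not among the samples either. A response to delivery that control and treatments share could therefore not be seen.

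Libraries held 18876395 to 100698084 counts (median 23413171), and COX3 replicate 4 alone exceeded 28121898. At these depths 3 counts equal 0.0297 to 0.159 CPM, which covers counting error only. All 8 HEK293 marker genes were tested, and their summed level was 892 to 1102 CPM in every library, against 0.92 to 2.71 CPM for 6 blood cell markers and 0.78 to 3.26 CPM for 4 endothelial markers. The paper reports that the chimeras act on translation, by hindering the contact between ribosome and mRNA. For the RNA-seq experiment it shows the block by labelling newly made mitochondrial proteins. The level of the targeted mRNA is therefore not by itself a measure of silencing. For COX1 the paper does report a fall of the mRNA with its chimera and attributes it to impaired translation. A chimera against an internal stretch of that mRNA did not lower it there. The targeted mRNA was called lower in 3 of 11 treatments (MT-CO1, MT-CO3 and MT-CYB) by edgeR's quasi-likelihood test. It was called higher in 3 (MT-ND1, MT-ND2 and MT-ND3), and log2 fold changes ran from -1.33 to 1.02. In bulk RNA, fewer cells with a transcript and less transcript per cell cannot be told apart.

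The ISRE core, GAAANNGAA or TTCNNTTTC on the other strand, was searched in the 250 bases before each annotated start, using RefSeq promoter sequences of GRCh38.p14. Sequences were found for 30 of the 39 members, not for DHX58, OAS2, OASL, TMEM173, IRF3, IRF7, IFIT2, USP18 and IFITM2, and 18 of the 30 (60%) held the core, against 8.41% of 27305 genes. Requiring 1 more A at the end of the core, as the element is often written, left the same count of 18 members against 3.71% of genes. A GAS core (TTCNNNGAA) was present in 9 of the 30 members (30.0%), against 8.09% of genes. Some windows hold overlapping cores, and the shares count a gene once over all its listed starts. The stretches below belong to members whose values are given in full in the text, or are the strongly induced response genes ISG15 and IFIT1 that a reader would look for, and capitals mark the core.

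IFI27, chr14:94110633-94110657, plus strand: gtttcctgGAAAATGAAacctatct
IFITM1, chr11:313992-314016, plus strand: aacagcagGAAATAGAAacttaaga
IFIT5, chr10:89414516-89414540, plus strand: tattaagtTTCGGTTTCtgaagctt
BST2, chr19:17405744-17405768, minus strand: ctttctggGAAACTGAAactgaaaa
ISG15, chr1:1013382-1013406, plus strand: gggaaaggGAAACCGAAactgaagc
IFIT1, chr10:89392513-89392537, plus strand: tttcccctTTCGGTTTCcctaggtt

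Each stretch lies before an annotated start of its gene, in a window where the match is a description of letters and not a measured binding site. The GAAA repeats of ISG15 continue on either side of the marked core, and those of BST2 continue after it. IFI35, whose values are given below, held no core in its window.

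The sensing machinery was expressed in control and treated libraries alike, all of them from transfected cells. Levels between genes were compared as CPM per kilobase of the deposited gene length, averaged over the 46 libraries. ADAR, which edits adenosines in double-stranded RNA, was the highest at 43.8 CPM per kilobase, followed by MAVS at 16.3, IFIT5 at 14.8 and EIF2AK2, the kinase PKR that halts translation on double-stranded RNA, at 14.7. USP18 (13.9), IRF3 (13.2), TRIM25 (12.6) and ISG15 (10.4) came next. MX1, a GTPase that blocks viral replication, was the lowest of the 35 members compared, at 0.22 CPM per kilobase.

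**Figure D1:**
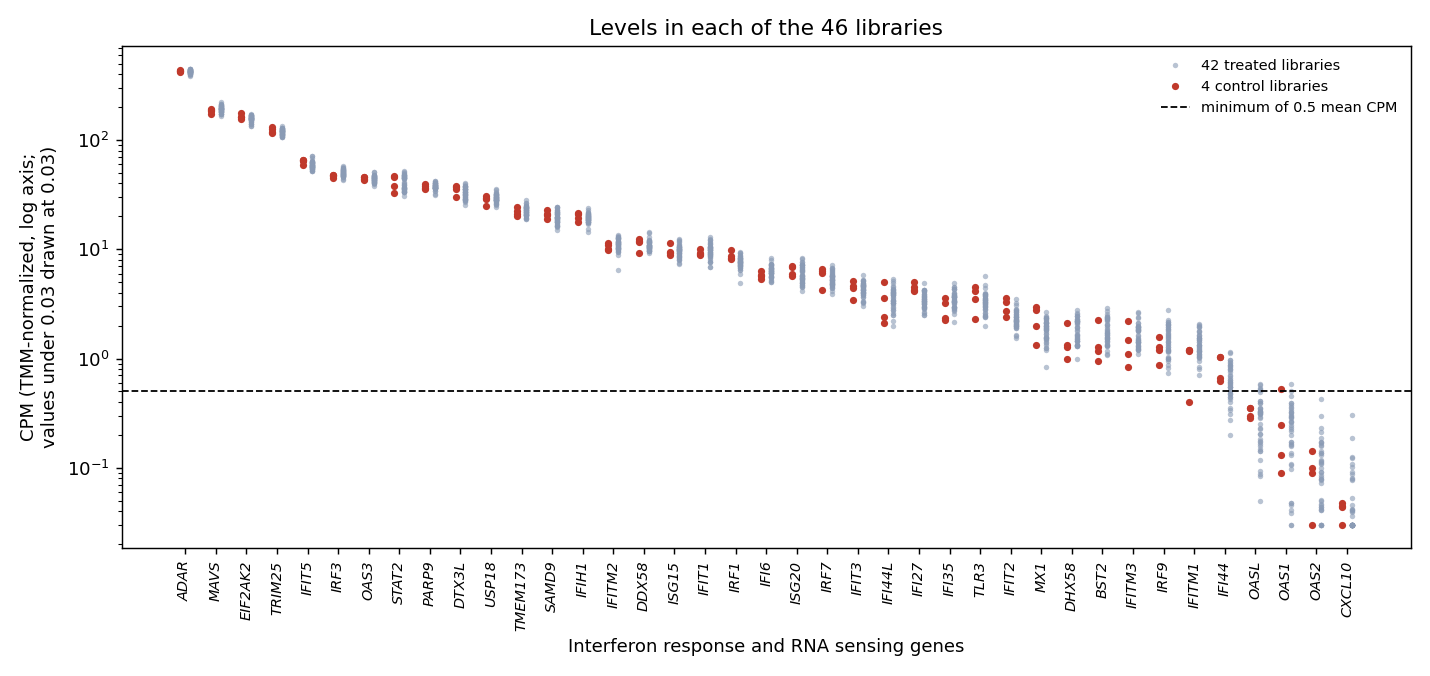
Level of each of the 39 members in each library, in CPM on a log axis, with the 4 control libraries in red and the 42 treated libraries in grey-blue. The members run from ADAR at a mean of 424 CPM to CXCL10 at 0.04 CPM, and 4 members lie under the dashed minimum of 0.5 mean CPM.

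The 4 members under the minimum are genes that are usually close to silent until interferon acts. OASL had a mean of 0.29 CPM, OAS1 0.23, OAS2 0.10 and CXCL10, a chemokine, 0.04. OAS2 held 116 counts over all 46 libraries and was at 0 in 6 of them. CXCL10 held 45 counts in all and was at 0 in 23 libraries. In the control, CXCL10 held 3 counts over 4 libraries, and in the treatments it held 0 (ATP6) to 11 (ND3) counts. OAS3, a larger enzyme of the same family, which makes the second messenger that activates RNase L, had a mean of 44.3 CPM.

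The interferons themselves were at the limit of detection. The 21 interferon genes listed, which cover the alpha, beta, omega, epsilon, kappa, gamma and lambda types, held 453 counts over 46 libraries, or 2 to 52 counts per library. None of the 21 passed the filter on low counts, so none was tested. The control held 36 counts over its 4 libraries, with 0.0887 to 0.663 CPM per library. Among the treatments the summed level ran from 0.079 CPM in an ATP8 library to 0.952 CPM in a COX1 library. IFNB1, the interferon first made by most cells after RNA sensing, was at 0 in 41 libraries and reached at most 4 counts. It held 0 counts in the control, 6 over the COX1 libraries, 3 over ND5, 1 over ND4L and 0 in the other treatments. IFNE, an interferon of epithelia, had the highest level of the list, 0.163 CPM.

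Across the 11 treatments, each compared with the same 4 control libraries, none of the 35 members was called altered by edgeR's quasi-likelihood test at an adjusted p under 0.05. This covers 385 tests, of which 56 (14.5%) had an unadjusted p under 0.05, with 20 higher and 36 lower, and the smallest adjusted p was 0.0639. Over all 20272 genes and the 11 comparisons together, 0.171% of tests were called and 9.79% had an unadjusted p under 0.05. DESeq2 with the same batch term called 5 of the 385, all described below, where it called 0.954% of the tests to which it gave an adjusted p. With a replicate block in place of the batch, edgeR called 1 of the 385, and 892 tests over all genes. The treatments share their controls, so the 11 comparisons are not independent of each other.

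Counts of members called can be read against the share of all genes that edgeR called in each comparison. After silencing of ATP6, 0 of 35 members and 0.00987% of genes were called, and after ATP8 the values were 0 of 35 and 0.0641%. For complex IV, 0 of 35 members were called in each treatment, against 0.0543% of genes for COX1, 0.469% for COX2 and 0.306% for COX3. After CYTB silencing, 0 of 35 members were called, against 0.548% of genes. For complex I, 0 of 35 members were called in each treatment, against 0.0888% of genes for ND1, 0.0247% for ND2, 0.00987% for ND3, 0.148% for ND4L and 0.158% for ND5. An unadjusted p under 0.05 was found for 3 members (8.57%) each after ATP8, COX1 and ND3 silencing, against 10.2%, 7.44% and 3.31% of genes. CYTB had 9 such members (25.7%), against 13.7% of genes, and ND5 had 10 (28.6%), against 9.3% of genes. Of these, 6 were lower for CYTB and 7 for ND5. COX2 and ND1 had 4 such members each (11.4%), and ATP6, COX3, ND2 and ND4L had 5 each (14.3%). These shares stand beside the 9.79% of all gene tests over the 11 comparisons.

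The members had no common direction against the control. The median log2 fold change of the 35 members ran from -0.04 (ATP8) to 0.03 (ATP6), while that of all genes tested lay between -0.003 and 0.004. Without the sign, the members' median ran from 0.07 (ND2) to 0.13 (CYTB), and that of all genes from 0.07 (ND3) to 0.12 (COX2). It was larger than that of all genes in some treatments (ND3, 0.10 against 0.07) and smaller in others (ND2, 0.07 against 0.08). The upper 95% limit of the log2 fold change lay under 1, a doubling, in 373 of the 385 tests. For the 16 members with a mean of at least 10 CPM, fold changes ran from -0.20 to 0.24 on the log2 scale and the 95% limits from -0.37 to 0.48 over 176 tests. The bounds were wider for rare transcripts, and the highest upper limit was 1.31 for IFITM1 after ND2 silencing.

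**Figure D2:**
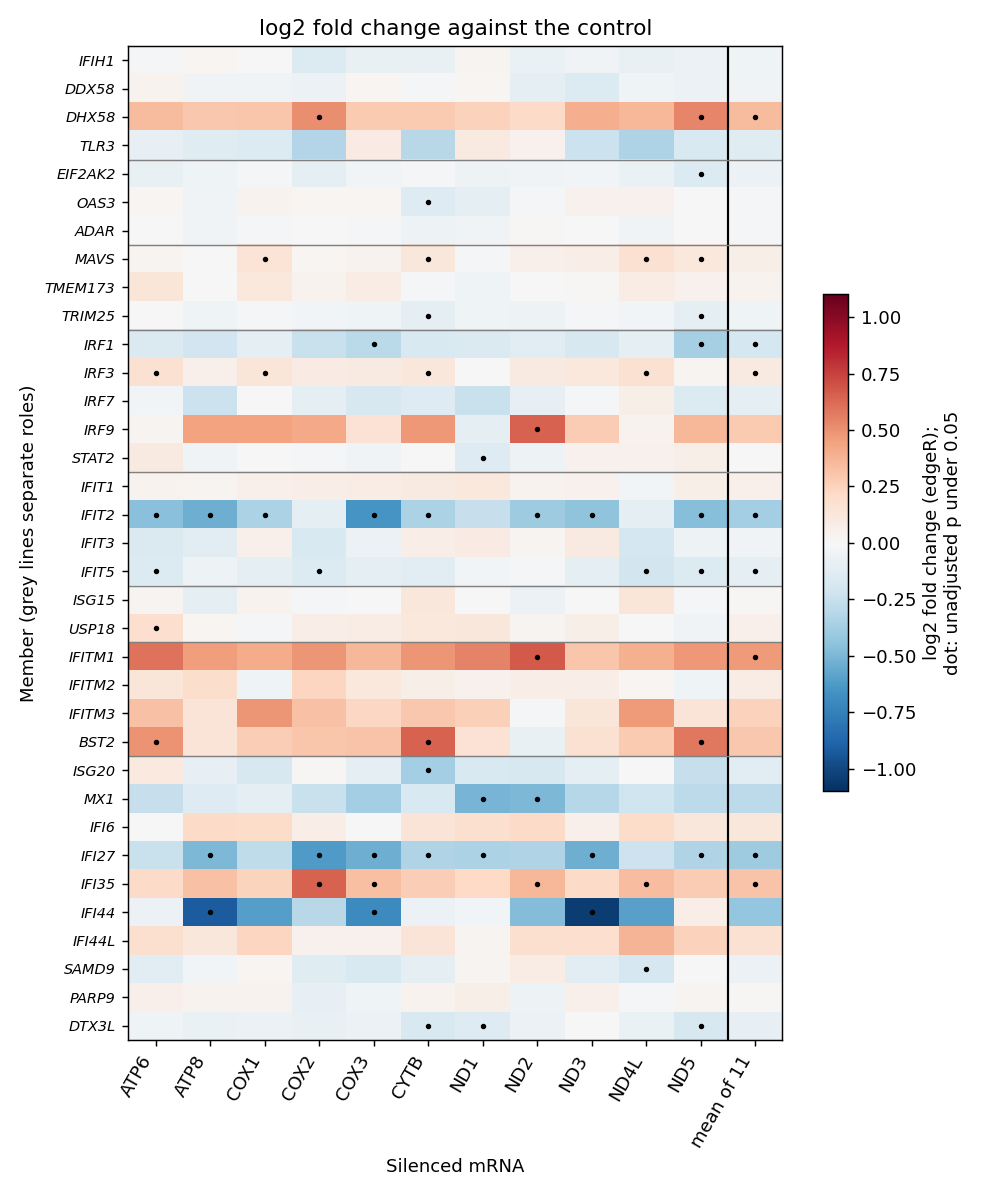
log2 fold change of the 35 members against the control for each silenced mRNA and for the mean of the 11 treatments (last column), ordered by role. Blue is lower and red is higher, a dot marks an unadjusted p under 0.05, and no square has an adjusted p under 0.05. Values are negative in every column for IFI27, IFIT2, IFIT5, IRF1, MX1, EIF2AK2, TRIM25 and DTX3L. They are positive in every column for DHX58, IFITM1, IFI35, IRF3 and IFI44L. The same 4 control libraries stand behind all columns, and genes of constant sign were not counted over all genes.

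The counts by role that follow stand beside 9.79% of all gene tests with an unadjusted p under 0.05 by edgeR's quasi-likelihood test. The RNA sensors gave 2 of 44 tests with an unadjusted p under 0.05. IFIH1, the gene of MDA5, was at 19.9 ± 1.78 CPM in the control (SD, n = 4), and DDX58, the gene of RIG-I, at 11.3 ± 1.38. Their log2 fold changes lay between -0.15 and 0.03 for IFIH1 and between -0.15 and 0.04 for DDX58. DHX58, the gene of LGP2, which has no signalling domain of its own and tunes the other sensors, gave positive values in 11 of 11 treatments, from 0.21 (ND2) to 0.54 (ND5), with a smallest adjusted p of 0.292. Its batch 2 controls differed, at 2.13 CPM in replicate 3 and 0.99 CPM in replicate 4. The DHX58 mean over the treatments was 0.21 within batch 1 and 0.47 within batch 2. TLR3, the endosomal receptor of double-stranded RNA, ran from -0.34 (ND4L) to 0.10 (ND1).

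The enzymes that bind double-stranded RNA stayed within narrow limits. Of 33 tests of EIF2AK2, OAS3 and ADAR, 2 had an unadjusted p under 0.05, namely EIF2AK2 after ND5 silencing (-0.15) and OAS3 after CYTB silencing (-0.14). ADAR gave log2 fold changes from -0.05 to 0.01, and no upper 95% limit above 0.10. MAVS was at 171 to 192 CPM in the 4 control libraries, and its log2 fold change ran from -0.01 (ND1) to 0.17 (ND4L). In 4 treatments the MAVS value had an unadjusted p under 0.05, with a smallest adjusted p of 0.158. TMEM173, the gene of the DNA pathway adaptor STING, lay between -0.05 and 0.14, and TRIM25, the ubiquitin ligase that assists RIG-I, between -0.11 and -0.0005.

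Transcription factors gave 8 of 55 tests with an unadjusted p under 0.05. IRF3, the factor that MAVS signalling activates first, lay between 0.01 and 0.17 on the log2 scale, and IRF1, which is itself induced by interferon gamma, between -0.37 (ND5) and -0.09 (ND4L). IRF7, which sustains interferon production, lay between -0.25 and 0.06. IRF9 and STAT2 are parts of the complex that binds the ISRE. IRF9 ran from -0.10 (ND1) to 0.65 (ND2, adjusted p 0.998), at a mean of 1.5 CPM, and STAT2 from -0.14 (ND1) to 0.10 (ATP6), at a mean of 41.2 CPM.

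The IFIT family, interferon-induced proteins that include binders of viral RNA, held the smallest p of the 35 members. Of its 44 tests, 12 had an unadjusted p under 0.05, all 12 of them on the lower side, 8 in IFIT2 and 4 in IFIT5. Both genes were set against the same 4 control libraries in every treatment, and IFIT1 and IFIT3 gave no such test. IFIT1, usually among the most inducible genes of the response, gave -0.03 to 0.11, and IFIT3 gave -0.19 to 0.10. The annotations of IFIT1, IFIT2 and IFIT3 overlap that of LIPA (114 CPM) on the other strand, and the use of strand in counting is not given in the sources used here.

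Values in single libraries are given for IFITM1 and IFI27 by rule, and for IFIT2, IFIT5, BST2 and IFI35 as members singled out after their values were seen. How many of all genes show no overlap with the same 4 control libraries was not counted. A lack of overlap is therefore given here and below as a description only. The IFIT2 level was 2.71, 2.42, 3.32 and 3.55 CPM in control replicates 1 to 4, and 1.53, 1.99, 2.25 and 1.91 CPM in the COX3 libraries. Every COX3 library lay under every control library. The log2 fold change was -0.65 (SE 0.17) with an adjusted p of 0.0639 by edgeR's quasi-likelihood test. With the replicate number as a block in place of the batch the adjusted p was 0.0422, and with DESeq2 it was 0.0249. Within batch 1 alone the log2 fold change was -0.54 and within batch 2 alone -0.76.

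For IFIT5, which also binds RNA with a 5′ triphosphate, the control held 63.6, 66.3, 59.5 and 65.6 CPM and the ND4L libraries 58.8, 58.2, 52.7 and 51.9 CPM. The groups did not overlap, which was not counted over all genes. The log2 fold change after ND4L silencing was -0.20 (SE 0.06) with an adjusted p of 0.111 by edgeR's quasi-likelihood test and 0.044 by DESeq2. DESeq2 called 2.84% of its genes in that comparison.

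ISG15, a ubiquitin-like protein that is attached to others in the antiviral state, gave -0.10 to 0.14 on the log2 scale. Its control level was 11.3, 9.21, 8.81 and 9.38 CPM, and every treatment had libraries within this range. USP18, which removes ISG15 from proteins and dampens the interferon receptor, gave -0.04 to 0.18.

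The membrane effectors, which hold virus at the cell surface or in endosomes, had mostly positive values, none of which passed the test. Their median log2 fold change over 44 tests was 0.28, and 4 of the 44 had an unadjusted p under 0.05. BST2, the gene of tetherin, was at 2.26, 1.28, 0.94 and 1.18 CPM in the control and at 2.19, 1.96, 2.38 and 2.54 CPM after CYTB silencing. Control replicate 1 lay within the range of the CYTB libraries and the other 3 controls below it. The log2 fold change was 0.65 (SE 0.24) with an adjusted p of 0.188, and without control replicate 1 it was 1.04 with an adjusted p of 0.0202, by edgeR's quasi-likelihood test. Over the mean of all treatments BST2 gave -0.19 within batch 1 and 0.91 within batch 2, so its direction was not the same in the 2 batches.

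IFITM1 gave the highest log2 fold change in the mean of the 11 treatments among members with at least 1 mean CPM. Its control values were 1.2, 0.40, 1.19 and 1.18 CPM, and the 42 treated libraries ran from 0.70 over a median of 1.32 to 2.07 CPM. Control replicate 2 lay under all other libraries, and 35 of 42 treated libraries lay above the control mean of their batch. The mean log2 fold change was 0.47 (SE 0.23) with an adjusted p of 0.403 by edgeR's quasi-likelihood test. Without control replicate 2 it was 0.21, and it was 0.72 within batch 1 and 0.25 within batch 2. The annotation of IFITM1 overlaps that of IFITM2 (11.1 CPM) on the same strand, so reads of these close relatives may be shared or dropped.

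Among the other effectors, 21 of 110 tests had an unadjusted p under 0.05, with 4 higher and 17 lower. IFI27 alone gave 7 of the 21, all against the same 4 control libraries. IFI27, a small hydrophobic protein that interferon strongly induces, had the lowest mean log2 fold change of members with at least 1 mean CPM. The control held 4.17, 4.5, 4.21 and 5.07 CPM, and the treated libraries ran from 2.48 over a median of 3.39 to 4.91 CPM. Of the 42 treated libraries, 36 lay below all 4 controls and none above them, a count not made for all genes. The mean log2 fold change was -0.39 (SE 0.11) with an adjusted p of 0.103 by edgeR's quasi-likelihood test, and the value was -0.40 within each batch.

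In single treatments, IFI27 was furthest from the control after COX2 silencing, at 2.48, 2.92 and 3.44 CPM. All 3 libraries lay under all controls. The log2 fold change was -0.62 (SE 0.17) with an adjusted p of 0.0701 by edgeR's quasi-likelihood test and 0.0274 by DESeq2, which also called IFI27 after COX3 silencing (-0.54, adjusted p 0.0423). DESeq2 called 2.41% of its genes for COX2 and 1.07% for COX3. Without COX2 replicate 4, the edgeR adjusted p was 0.0397.

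IFI35, a protein that binds the factor NMI and is released as a danger signal, ran the other way. The control held 3.55, 3.22, 2.33 and 2.27 CPM and the COX2 libraries 4.32, 4.94 and 3.62 CPM, with no overlap. The log2 fold change was 0.65 (SE 0.18) with an adjusted p of 0.069 by edgeR's quasi-likelihood test and 0.0248 by DESeq2, and 0.0394 by edgeR without COX2 replicate 4. Within batch 1 it was 0.36 and within batch 2 it was 0.90. The control level itself was higher in batch 1 than in batch 2.

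**Figure D3:**
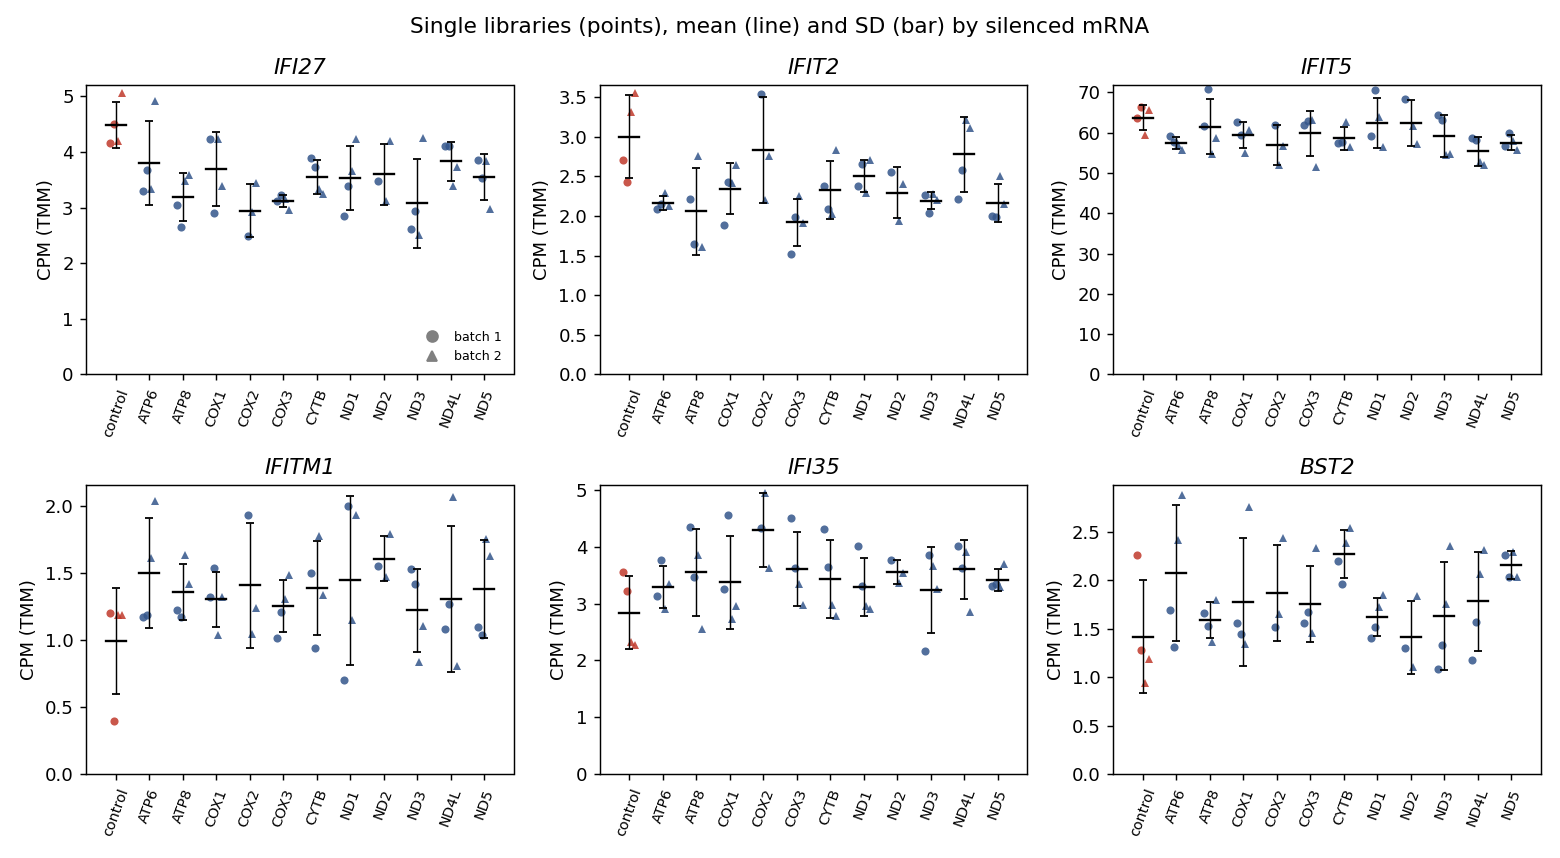
Level of 6 members in every library, in CPM, by silenced mRNA, with the mean (line) and SD (bar) of each condition. Circles are batch 1 and triangles batch 2, and the control is in red. The 4 IFI27 controls lie between 4.17 and 5.07 CPM, with 36 of 42 treated libraries below them, and the single low control of IFITM1 stands at 0.40 CPM.

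IFI44 showed the lowest value of all 385 tests, -1.04 after ND3 silencing (adjusted p of 1 by edgeR's quasi-likelihood test), at a mean level of 0.66 CPM where 5 to 72 counts stood behind a library. IFI44L, its neighbour and relative, gave 0.03 to 0.38. MX1 had negative values in 11 of 11 treatments, from -0.51 (ND1) to -0.11 (COX1) on the log2 scale, with a smallest adjusted p of 0.333. IFI6, an interferon-induced membrane protein, gave -0.003 to 0.21, and ISG20, an RNA exonuclease, -0.38 to 0.11. SAMD9, PARP9 and DTX3L, of which the last 2 form an antiviral ligase complex and overlap on opposite strands, lay between -0.19 and 0.08.

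In the mean of the 11 treatments against the control, 0 of 35 members were called by edgeR's quasi-likelihood test and 0 by DESeq2, where edgeR called 0.261% of genes and DESeq2 1.84%. An unadjusted p under 0.05 was found for 8 members (22.9%), against 11.9% of genes. Of these, 4 were higher (DHX58, IRF3, IFITM1 and IFI35) and 4 lower (IRF1, IFIT2, IFIT5 and IFI27). IFIT2 stood at -0.37 (SE 0.12, adjusted p 0.156), and 3 of 42 treated libraries lay above the control mean of their batch. IFI35 stood at 0.31 (SE 0.13, adjusted p 0.283), with 36 of 42 above it. The median over the 35 members was -0.01, against -0.001 for all genes, and without the sign it was 0.10, against 0.08.

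No member set 1 treatment apart from the other 10. With 35 members and 11 such comparisons, edgeR's quasi-likelihood test called 0 and DESeq2 called 0, where DESeq2 called 0.307% of all its tests. The share of genes that edgeR called was 0.00987% for ATP6, COX2 and ND3, 0.0148% for ATP8, 0.0197% for ND4L, 0.0296% for ND2, 0.0543% for COX1, COX3 and ND1, 0.0592% for CYTB and 0.774% for ND5. Members with an unadjusted p under 0.05 numbered from 1 (ATP8, COX1 and COX3) to 6 (ND5, 17.1% of members against 12.6% of genes). The smallest adjusted p was 0.241, for STAT2 after ND1 silencing at -0.16 (SE 0.05). This comparison leaves the 4 control libraries out of the contrast.

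Many members differed between the 2 batches, as most genes did. Between batch 2 and batch 1, 23 of 35 members were called, 12 higher and 11 lower, against 57.1% of all genes (29.2% higher and 27.9% lower). STAT2 was higher in batch 2 by 0.37 on the log2 scale (SE 0.03, adjusted p 9.09e-17, edgeR's quasi-likelihood test). DHX58 (0.51), IRF9 (0.45), MX1 (0.35), ISG20 (0.30) and IFIT1 (0.27) were also higher. DTX3L (-0.28), IFI35 (-0.23), SAMD9 (-0.22), IFIT3 (-0.20) and TRIM25 (-0.14) were lower, so members of the same response went in opposite directions. The batch is balanced over most conditions and is a term of the model, but COX2 and ND2 have 1 library in batch 1.

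**Figure D4:**
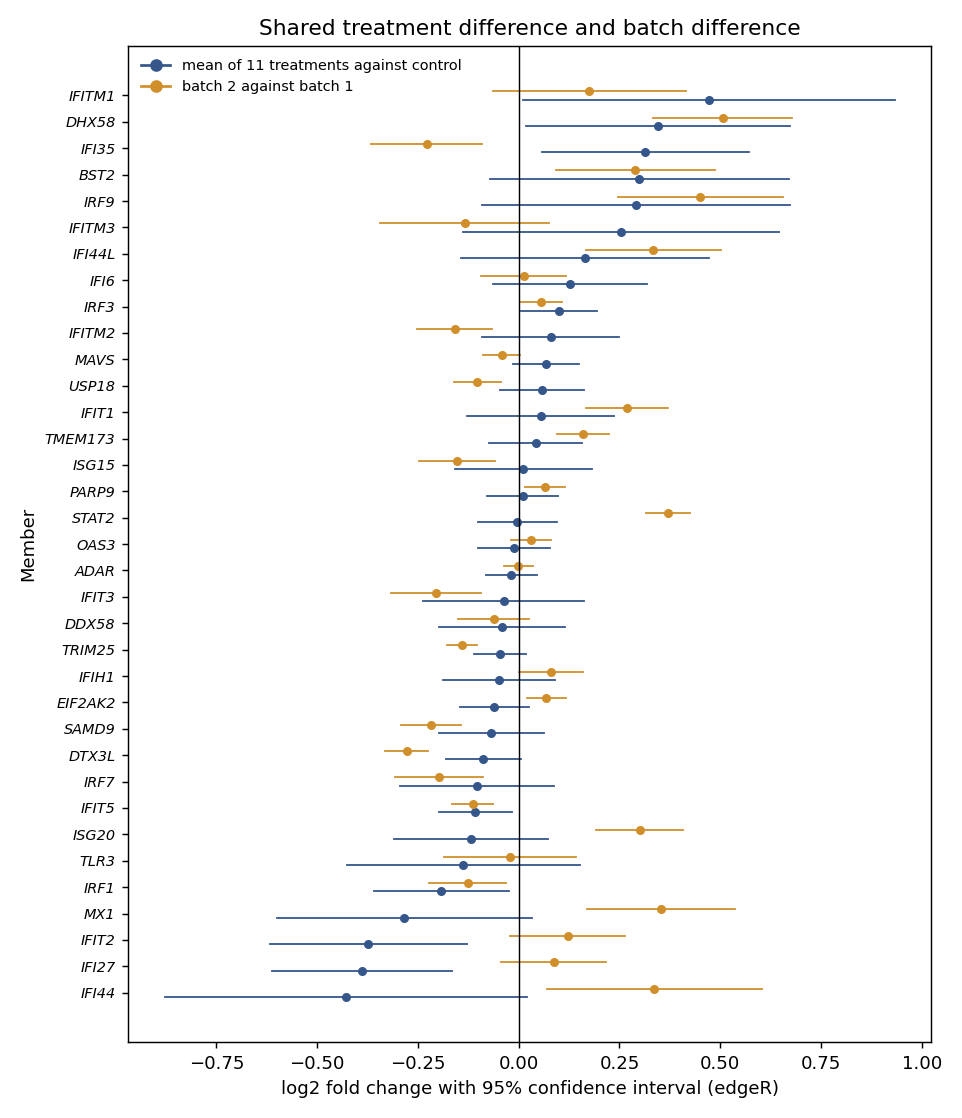
log2 fold change with its 95% confidence interval for the 35 members, in the mean of the 11 treatments against the control (blue) and in batch 2 against batch 1 (orange). The intervals of the treatment mean are wider because they rest on 4 control libraries. STAT2 lies at 0.37 between batches and at -0.003 in the treatment mean.

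No common movement of the 35 members from library to library was seen. The mean log2 difference of the 35 members from the control of the same batch lay between -0.02 (COX3) and 0.03 (ATP6) as the mean of a condition, with an SD between libraries of at most 0.05. After the condition and batch were removed, the 561 pairs among 34 members had a median Pearson correlation of 0.01 over the 46 libraries, with 2 pairs above 0.5 and 6 below -0.5. The positive pairs were OAS3 with ADAR (0.73) and IRF1 with IRF7 (0.63). The negative pairs were EIF2AK2 with IRF1 (-0.61), IRF3 (-0.54) and IFITM2 (-0.51), IRF3 with IFIT5 (-0.60), and SAMD9 with BST2 and ISG15 (-0.50 each). They are given as a description, since the points share library depth and composition. In the mean over members rises and falls can cancel, and counting noise in rare members lowers a correlation. Movement shared by some members could therefore be missed.

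The wider pathway gave 1 call. Among 69 tested of 78 further interferon-stimulated genes, HLA-E, which encodes a class I molecule read by natural killer cells, was called higher after COX2 silencing (0.20, SE 0.05, adjusted p 0.0352, edgeR's quasi-likelihood test), where 0.252% of all genes were called higher. Of the 759 tests of this list, 77 (10.1%) had an unadjusted p under 0.05, near the 9.79% of all genes, and DESeq2 called 5, where it called 0.954% of all its tests. Its median log2 fold change lay between -0.01 (ND5) and 0.04 (COX1). The most abundant genes of the list were LGALS3BP (545 CPM), HLA-C (347 CPM) and B2M (344 CPM).

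The other parts of the pathway gave no call in any treatment with edgeR's quasi-likelihood test. The shares below stand beside the 9.79% of all gene tests with an unadjusted p under 0.05 and the 0.954% that DESeq2 called. The 20 receptor and signalling genes, led by TYK2, JAK1 and STAT3, had 15 of 220 tests (6.82%) with an unadjusted p under 0.05 and 0 calls by DESeq2. The 42 adaptors, kinases and helicases tested had 59 of 462 (12.8%) and 5 calls by DESeq2. For the 14 DNA sensing genes tested the numbers were 20 of 154 (13%) and 2 calls, and for the 22 genes of mitochondrial RNA decay and release 36 of 242 (14.9%) and 1 call. The 20 NF-kB targets tested had 15 of 220 (6.82%) and 0 calls, with medians from -0.06 (ND4L) to 0.14 (ATP6). Between batches, 11 of these 20 NF-kB targets were higher in batch 2 and 2 were lower, against 29.2% and 27.9% of all genes.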

How the data were processed

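From poly(A) RNA, the authors deposited raw read counts per gene, with a gene length and no normalization. The submitters' processing notes name GRCh38.p12, R 4.3.0, DESeq2 1.40.2 and limma 3.56.2, while aligner, counter and strand are not given in the sources used here. The paper describes paired-end reads and the labels single-end reads. Reads of overlapping genes may therefore be shared, split or dropped.

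Conditions, replicates and batches came from the sample labels and the paper, and every column matched a sample. The fit used edgeR 4.0.16 under R 4.3.3 (quasi-likelihood test, TMM, filterByExpr with a minimum count of 10, a term for condition and for batch) over all 46 libraries. Adjusted p-values follow Benjamini and Hochberg over the 20272 genes tested, with a threshold of 0.05. SE and 95% limits come from the F statistic. CPM values and fold changes were computed here. DESeq2 1.42.0, with and without batch-corrected counts (limma 3.58.1), was an alternative, as were other scalings and filters, each batch alone, a replicate block and leaving out each library. The fit was tested on simulated data.

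Full statistics went by rule to members called in any comparison, and to those with the highest and lowest mean fold change at 1 mean CPM or more. Other members with values per library were added after their values were seen. Members and gene lists were chosen with earlier results of these data known. Same-numbered libraries deviated together (mean correlation 0.21, 0.10 to 0.38 over 242 pairs). Every such pair was above 0.1, but other numbers of the same batch gave nearly the same values (mean 0.18, 0.06 to 0.36 over 243 pairs). The study ties days and reagents to the batch, not to the number. The main fit had a batch term and did not pair libraries by number, and the replicate block was an alternative. All 66 replicate pairs differed by more than sampling noise. The study calls the replicates biological, and p-values measure the spread between these samples. ISRE and GAS cores were searched in RefSeq promoter sequences of GRCh38.p14, and coordinates are of that build.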

Additional observations from a re-analysis of the deposited data

Results flagged for a closer look

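In 70 groups of 4 libraries (7 values in each of the 10 conditions with 4 libraries), 5 held 1 library far from the others, where chance flags about 1 in 20 groups. IFITM1 was at 0.40 CPM in control replicate 2, against 1.18 to 1.2 CPM in the other controls. IFIT5 was at 51.5 CPM in COX3 replicate 4, the deepest library, against 62.0 to 63.1 CPM. BST2 was at 2.75 CPM in COX1 replicate 4, against 1.34 to 1.55 CPM. IFI35 was at 3.70 CPM in ND5 replicate 4, against 3.30 to 3.35 CPM. The mean log2 difference of the 35 members from the control of the same batch was -0.0384 in COX3 replicate 3, against -0.0196 to -0.0176 in the other COX3 libraries.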

How the results depend on the processing

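The count of members called was 0 in every comparison with the control under no batch term, RLE size factors, library sizes from nuclear genes, no filter, a filter at 1 mean CPM, each batch alone and only the libraries compared. It moved in 3 of 11 treatments under the other tools. DESeq2 with the batch term called 2 members for COX2, 2 for COX3 and 1 for ND4L, and DESeq2 on counts corrected by removeBatchEffect called 2 for COX3 and 1 for ND4L. The replicate block in place of the batch called 1 member for COX3 (IFIT2) and changed no other call of a member. Over all genes and the 11 comparisons, calls numbered 892 with the replicate block, 34 with no batch term, 1482 with DESeq2, 2169 with no filter and 1615 with only the libraries compared. Leaving out 1 library gave 0 to 2 members for COX2 (2 without COX2 replicate 4) and 0 to 1 for CYTB (1 without control replicate 1), and 0 in all other comparisons with the control. IFIT2 after COX3 silencing ranged from -0.73 to -0.58 and IFI35 after COX2 silencing from 0.49 to 0.73. The mean log2 fold change of IFI27 ranged from -0.43 to -0.34, with adjusted p from 0.0703 to 0.519, and that of IFITM1 from 0.21 to 0.62. The cause of these differences was not tested. Depth limits the rare members, and the upper 95% limits past a doubling belonged to IFITM1, BST2, IRF9 and IFI35.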
